A study of Mus musculus with 3 samples.

Results

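The granulosa cells of the postnatal day 7 mouse ovary described here are 86 single cells of 509 kept in that library (16.9%; exact 95% interval 13.7 to 20.4), out of 1554 cell barcodes in the series. They were chosen by measured values. A cell needed 200 or more detected genes and a sum of Inha, Amh, Hsd17b1 and Nr5a2 of at least 5 UMIs per 10000 (CP10K). It also needed less than 5 CP10K of the theca enzymes Cyp17a1 and Cyp11a1 together, and fewer than 10 UMIs of the oocyte gene Zp3. A UMI is a unique molecular identifier and stands for a captured mRNA molecule.

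Whole ovaries of C57BL/6 female mice were taken before birth on embryonic day 16.5, or after it on postnatal days 7 and 14, per the labels. The tissue was digested with collagenase and DNase and passed through a 40 μm filter, which can remove large cells and clumps. The labels record no genetic alteration or drug and do not say how many mice gave each library. Each age is 1 library, so no difference below has a replicate check, none was tested, and every interval covers counting error only. The 3 libraries held 8743797 to 9065595 UMIs in all, and 0 barcodes were shared between the day 7 library and another. The 86 granulosa cells held 1914660 UMIs, with 7665 in the shallowest cell, 18103 in the median cell and 57619 in the deepest. They are compared with the other 412 somatic cells of the same library (5903623 UMIs, median cell 10935), from which 11 cells with 10 or more Zp3 UMIs were left out. Of the 412, 349 had a stroma marker sum of 20 CP10K or more, so the comparison is mainly with cells that carry stroma markers. A sum of that size was found in 43 for smooth muscle or pericyte, 21 for endothelial, 15 for erythroid and 14 for immune markers.

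Granulosa cells are the somatic cells that surround the oocyte inside a follicle. They feed it through gap junctions, signal to it with Kit ligand, and answer with inhibin, activin, anti-Müllerian hormone and, in large follicles, oestradiol. In the mouse ovary of the first postnatal week most follicles are primordial or just beginning to grow, and granulosa cells start to divide when a follicle leaves the resting pool.

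Few cells lay near the limit of the rule. Of the 509 cells without the 11 that had 10 or more Zp3 UMIs, 286 held no UMI of the 4 genes and only 2 lay between 3 and 5 CP10K. The 5 members nearest the limit stood at 5.19, 5.93, 6.29, 6.60 and 7.66 CP10K. Among the same cells, the 5 nearest outside it stood at 4.32, 3.13, 2.81, 2.63 and 2.61. A UMI of all 4 genes was found in 61 of the 86 members. A single cell above the limit was left out for its Zp3 UMIs, and none for its steroid enzymes. At embryonic day 16.5 the same rule took 0 of 456 cells, which allows a share of up to 0.658% (3 cells), and the highest sum there was 4.46 CP10K. At postnatal day 14 it took 93 of 583 cells (16.0%; 13.1 to 19.2), and another 27 cells above 5 CP10K were left out for their steroid enzymes.

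**Figure D1:**
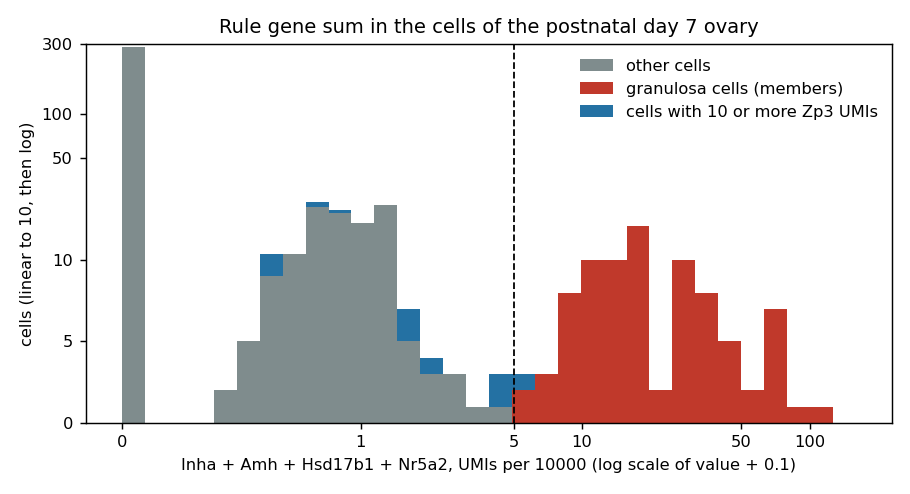
Sum of the 4 genes that chose the granulosa cells in each of the 509 kept cells of the postnatal day 7 library (horizontal axis, UMIs per 10000, on a log scale of the value plus 0.1; vertical axis, cells, linear to 10 and logarithmic above). The dashed line is the limit of 5, with 86 members in red to its right. Of the cells with fewer than 10 Zp3 UMIs, 2 lay between 3 and 5.

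As a sum, the other granulosa markers were high in the cells too. Over the 19 fixed markers that did not choose the cells, the sum was 33.2 CP10K in the lowest member, 71.8 in the median and 112 in the highest. The other somatic cells had a median of 9.55, and 58 of the 412 reached 20 CP10K or more, the highest at 82.2, so that some cells outside the rule carry granulosa markers too. The markers were uneven: of their 13591 UMIs in the members, Serpine2 held 2539 and Kctd14 2184. Fshr had 1 UMI, Cyp19a1 10, Bmpr1b 33 and Inhba 36. All markers were chosen with earlier results of these data known. The 8 endothelial markers summed to at most 1.77 CP10K in any member with Tie1 at 0, the 8 immune markers to at most 1.39 with Ptprc at 0, and the 8 smooth muscle or pericyte markers to at most 1.65 with Myh11 at 0. The 8 theca markers were above the other somatic cells, at 522 against 214 CPM, with medians of 4.56 against 1.03 CP10K per cell, Insl3 at 0 and 1 member just over 20 CP10K. One of the 8 is Hsd3b1, described below; the other 7 stood at 288 against 178 CPM, with 15.7 CP10K in the highest member. Their part in the results was not tested. There was 1 member with a stroma marker sum of 48.7 CP10K, another with 33.9 of surface epithelium markers and another with 31.9 of oocyte markers. Of Scrublet's 3 doublet calls in the library (0.589% of the cells), 1 was a member; at day 14, its 2 calls were both granulosa cells (0.343% of that library). Doublets were not removed.

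Low levels of genes from other cells were seen in several cell groups of the library. The 7 erythroid markers summed to 485 UMIs per 1000000 (CPM) in granulosa cells, 496 in the 21 cells with endothelial markers and 483 in the 11 cells rich in Zp3. The stroma markers had nearly the same median in these groups, at 2.29, 2.26 and 2.08 CP10K. In the 14 cells with immune markers the erythroid sum was 543 CPM, but the stroma median was 31.1 CP10K. The part of such shared RNA in low values was not tested.

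The genes that chose the cells are given first, as a description. Inha encodes the α subunit of inhibin, which lowers pituitary FSH release. It stood at 0 CP10K in the lowest member, 11.3 in the median and 94.5 in the highest, and summed to 1416 CPM against 24.9 CPM in the other somatic cells. Amh, anti-Müllerian hormone, ranged from 0 through a median of 3.44 to 40.8 CP10K (497 against 2.37 CPM). Hsd17b1, which reduces oestrone to oestradiol, ranged from 0 through 1.10 to 10.2 CP10K (139 against 2.54 CPM). Nr5a2, an orphan nuclear receptor that granulosa cells need for ovulation, ranged from 0 through 1.36 to 7.05 CP10K (170 against 3.39 CPM). Each of the 4 was thus missing in some members, and the highest cells of each lay far above its median.

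The promoters of 7 of 10 leading genes were found in RefSeq (GRCm38.p6); Amh, Hsd17b1 and Fst were not in the table. The 250 bases before the first base of each transcript were searched on both strands for the nuclear receptor motif AGGTCA (reverse TGACCT), which Nr5a2 and related receptors can bind, and for the cAMP response element TGACGTCA. AGGTCA lay before Inha and before the first of the 2 starts of Nr5a2, and in 14.0% of all 32536 promoters in the table. TGACGTCA lay before none of the 7 and in 1.56% of all. A stretch of 30 bases with the match is shown for Inha, and the whole window for Nr5a2 and for the granulosa markers Slc18a2 and Inhbb, which, outside the genes that chose the cells, were among the 3 furthest above the other somatic cells on the log2 scale used below and held no match. Sequences run 5′ to 3′ on the gene's strand, and capitals mark AGGTCA, whose first base is 69 bases before the start of Inha and 64 before that of Nr5a2. A match is a description of the letters.
Inha (chr1:75507528-75507557, plus strand): ttggggattggcAGGTCAactttgaagagt
Nr5a2 (chr1:136960449-136960698, minus strand): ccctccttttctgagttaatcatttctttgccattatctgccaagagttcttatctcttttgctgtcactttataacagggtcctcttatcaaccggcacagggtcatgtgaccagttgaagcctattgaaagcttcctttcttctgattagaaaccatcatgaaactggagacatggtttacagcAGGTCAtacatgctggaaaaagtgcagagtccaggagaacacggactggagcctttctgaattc
Slc18a2 (chr19:59260628-59260877, plus strand): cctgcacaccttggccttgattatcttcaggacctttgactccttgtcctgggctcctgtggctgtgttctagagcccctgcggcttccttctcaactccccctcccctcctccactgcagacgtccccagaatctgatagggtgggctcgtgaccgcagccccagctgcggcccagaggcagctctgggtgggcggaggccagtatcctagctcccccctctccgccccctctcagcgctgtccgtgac
Inhbb (chr1:119422249-119422498, minus strand): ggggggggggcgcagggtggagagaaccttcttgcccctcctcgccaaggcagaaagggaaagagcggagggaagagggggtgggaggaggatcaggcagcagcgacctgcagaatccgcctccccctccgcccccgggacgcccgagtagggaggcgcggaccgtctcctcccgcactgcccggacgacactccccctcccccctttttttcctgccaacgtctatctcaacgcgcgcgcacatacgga

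In the GRCm38 annotation GENCODE M21 the genes are protein-coding. Inha lies on chromosome 1 from 75507077 to 75510366 on the plus strand, so the stretch shown, which lies before the RefSeq start, is inside the gene as GENCODE draws it. Inhbb lies on chromosome 1 from 119415465 to 119422248 on the minus strand, and Nr5a2 on chromosome 1 from 136842571 to 136960448 on the minus strand. Slc18a2 lies on chromosome 19 from 59260896 to 59296012 on the plus strand, Fst on chromosome 13 from 114452290 to 114458951 on the minus strand, and Amh on chromosome 10 from 80805243 to 80807648 on the plus strand.

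Against the other somatic cells, granulosa cells had higher levels of Fst, Inhbb, Slc18a2 and Amhr2 mRNA, and lower levels of Igfbp7, Col1a1, Col1a2 and Acta2 mRNA. Fst, follistatin, which binds activin, was at 437 CPM (408 to 467) against 7.79 (5.70 to 10.4), a ratio of 56.0 (41.6 to 77.1). Its lowest, median and highest cells held 0, 3.92 and 21.3 CP10K, and 84 of 86 members had a UMI. Inhbb, the βB subunit of inhibin and activin, was at 239 against 2.88 CPM (82.9-fold; 51.2 to 144). Slc18a2, which encodes the vesicular monoamine transporter, was at 357 against 5.25 CPM (68.0-fold; 47.5 to 101), with 0, 3.05 and 12.96 CP10K in the lowest, median and highest member. Serpine2, a protease inhibitor, had a UMI in 86 of 86 members, from 2.22 through 12.8 to 30.1 CP10K. It was also found outside them, at 1326 against 197 CPM (6.73-fold; 6.27 to 7.22).

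Of 14908 genes compared, those with 10 or more UMIs over both groups, 691 (4.64%) were at least 2-fold higher in granulosa cells and 790 (5.3%) at least 2-fold lower, on the scale of CPM plus 10 (used for all such counts and log2 ratios), which understates the ratio of low genes. The cells were chosen by genes of this same comparison, so nothing is read from those shares or from the counts of lists that follow. Beside the genes above, the 15 highest by that scale included Wfdc10 (51.6-fold), Tnni3, which encodes cardiac troponin I (35.5-fold; 26.5 to 48.5), Tmem184a (35.6-fold), Aard (20.8-fold), Kazald1 (24.7-fold), Fam13a (25.7-fold) and Bex4 (13.3-fold). They also included the prostaglandin E synthase gene Ptges (13.8-fold), the apolipoprotein gene Apoa1 (29.6-fold; 19.8 to 46.3), the Myc family gene Mycl (20.1-fold), Zg16 (63.7-fold) and the chondromodulin gene Cnmd (78.8-fold). Genes with more than 50% of their UMIs in 3 cells could not be named, so their spread over cells is partly set by that limit. For 2 of them, the 3 members with most UMIs held 9.06% of those of Aard and 20.7% of those of Cnmd.

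All 19 follicle hormones and growth factors of a fixed list had enough UMIs to be compared. Granulosa cells had at least 2-fold more of 8 and less of 1, and the median log2 ratio was 0.54, against 0.03 over all genes compared. Inha and Amh, which chose the cells, are 2 of the 8. Kitl, the Kit ligand that binds its receptor on the oocyte, was at 177 against 31.5 CPM (5.62-fold; 4.69 to 6.76). Nppc, the C-type natriuretic peptide that holds the oocyte in meiotic arrest, was at 59.0 CPM against 3 UMIs in all other somatic cells (116-fold; 38.7 to 572). The hedgehog ligands Dhh and Ihh, which signal to the surrounding theca precursors, were at 36.0 and 33.4 CPM against 0.847 CPM each. Inhba, the βA subunit, stood at 18.8 against 12.4 CPM, a ratio of 1.52 whose interval (0.991 to 2.30) includes 1. The growth factor Mdk was the lower gene, at 185 against 921 CPM.

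Among 18 receptors of follicle signals 17 could be compared, and 5 of them were higher in granulosa cells by 2-fold or more and 1 lower (median 0.31). Amhr2, the receptor of anti-Müllerian hormone, was at 327 against 29.0 CPM (11.3-fold; 9.53 to 13.5), and 85 of 86 members held a UMI. The bone morphogenetic protein receptors Bmpr1b and Bmpr2 were at 17.2 against 1.36 CPM (12.7-fold) and at 104 against 32.5 CPM. Igf1r, the receptor of insulin-like growth factor 1, was at 211.5 against 71.1 CPM, and the activin receptor Acvr2b at 24.5 against 7.11 CPM. Fshr, the receptor of follicle-stimulating hormone, had 1 UMI in the 86 members and 1 in the other 412 cells, both under the 3 UMIs used as a floor. The growth hormone receptor Ghr was the lower gene, at 13.6 against 37.3 CPM.

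Of 12 genes of steroid and oestradiol synthesis 11 were compared, and 2 passed 2-fold, both higher. One is Hsd17b1 of the choice, the other Hsd3b1, which makes progesterone from pregnenolone, at 234 against 35.7 CPM (6.55-fold; 5.55 to 7.75). Reads of its near-identical relatives could be split among them. Cyp19a1, the aromatase that makes oestrogens, had 10 UMIs in 7 members and 0 in the other cells. With the floor of 3 UMIs put in for that group the ratio is 10.3, counting error left out. The 5 steroid receptors compared, of 7, had 1 higher and 1 lower. Esr2, oestrogen receptor β, was at 80.95 against 9.49 CPM (8.53-fold; 6.25 to 11.8), and Nr3c1, the glucocorticoid receptor, at 13.6 against 56.6 CPM. Esr1, oestrogen receptor α, was at 17.8 (34 UMIs) against 20.2 CPM, a ratio of 0.881 (0.583 to 1.30).

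**Figure D2:**
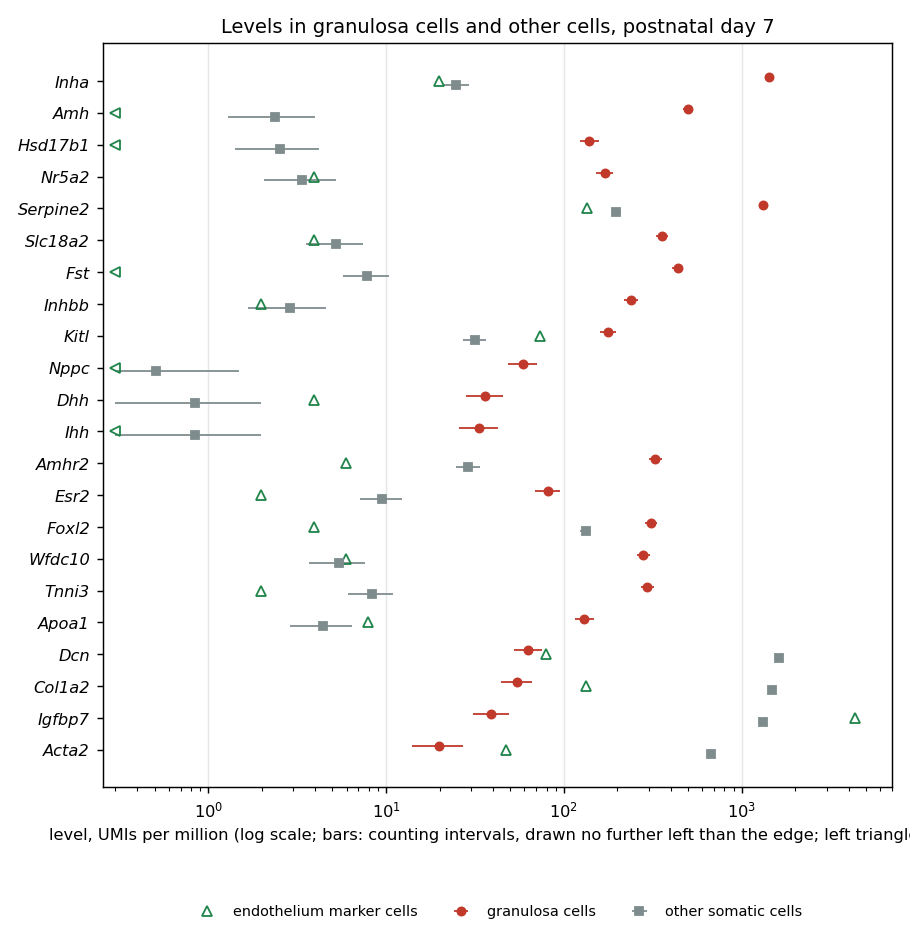
Levels in CPM (log axis) of 22 genes in granulosa cells (circles), other somatic cells (squares) and cells with endothelial markers (open triangles) of the postnatal day 7 library; bars are exact 95% counting intervals, and left-pointing triangles at the edge stand for 0. Inha to Apoa1 lie to the right in granulosa cells, and Dcn, Col1a2, Igfbp7 and Acta2 to the left.

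Transcription factors of the gonad divided between the groups, with 7 of 20 compared (of 21) higher past 2-fold and 2 lower (median 0.66). Wt1, which the early gonad needs to form, was at 481 against 173 CPM, Gata6 at 176.5 against 54.9 CPM and Emx2 at 82.5 against 17.3 CPM. Foxl2, which keeps granulosa cells from taking a testis fate, was at 309 against 133 CPM, a ratio of 2.33 (2.09 to 2.60), while the 21 endothelial cells held 2 UMIs of it. After thinning every cell to 5000 UMIs, 69.8% of granulosa cells and 43.7% of other somatic cells had a Foxl2 UMI, against 0 of 21 endothelial cells. Unthinned, these shares were 96.5%, 65.0% and 9.52%, at median depths of 18103, 10935 and 23381 UMIs. Foxo1 was at 115 against 41.0 CPM. Tcf21 and Nr2f2, both known from ovarian stroma, were the lower genes, at 4.18 against 299 CPM and at 38.6 against 214 CPM.

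Genes of cell contact were 3 higher and 0 lower of 10 compared. Gja1, the connexin that joins granulosa cells in gap junctions, was at 359 against 86.7 CPM (4.14-fold; 3.69 to 4.65). Myo10, a motor of filopodia, was at 213 against 32.7 CPM, and N-cadherin (Cdh2) at 71.0 against 8.64 CPM. The basement membrane list went both ways, 2 higher and 6 lower of 12 (median −0.71). Col18a1, the collagen that yields endostatin, was at 317 against 38.1 CPM, and the laminin gene Lama1 at 82.5 against 8.81 CPM. Col4a1, Col4a2, Lamb1, Nid1, Nid2 and Hspg2 were lower, with Nid1 at 48.6 against 173 CPM.

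Of 12 Notch genes compared 3 were higher, all target genes of the pathway: Hey1 (52.8 against 11.2 CPM), Heyl (92.4 against 20.3 CPM) and Hey2 (30.3 against 2.54 CPM). Notch2, the granulosa cell receptor, was at 40.2 against 35.1 CPM. Notch3, a receptor of mural cells, was lower, with 1 UMI in all members. Of 16 WNT genes Wnt6 was higher (251 against 23.5 CPM; 10.7-fold, 8.82 to 13.0), while Sfrp1, Fzd1 and Fzd2 were lower. The G1 list was divided, 5 higher and 4 lower of 14. Ccnd2, the D cyclin that granulosa cells use to divide, was at 1364 against 340 CPM, with a UMI in 86 of 86 members, and Cdkn1b, an inhibitor of cyclin-dependent kinases, at 114 against 27.1 CPM. Another D cyclin, Ccnd1, stood at 7.31 against 38.1 CPM, and the inhibitor Cdkn1c at 16.2 against 125 CPM.

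Of 13 compared genes known from embryonic pregranulosa cells, 2 were higher (Peg3 at 210 against 75.0 CPM, and Emx2) and 6 lower (median −0.66), among them Mest, H19 and Dlk1. Cholesterol synthesis genes had 2 of 14 higher, Fdps and Msmo1, and the S phase list 1 of 20, Ung. Glycolysis (13 genes), apoptosis (12) and G2 and M phase (24) had 0 past 2-fold either way, though the last had a median of −0.43. The dissociation stress list, genes that tissue digestion can induce, had 2 of 15 higher, Fosb and Dnajb1. Its sum was 7404 CPM in granulosa cells and 6315 in the other somatic cells, and its part in the comparison was not tested.

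The genes lowest in granulosa cells against the others were led by Igfbp7, Acta2, Col1a1 and Col1a2. Igfbp7, an insulin-like growth factor binding protein, was at 39.2 against 1318 CPM (33.7-fold lower; 26.8 to 42.8), the collagens Col1a1 and Col1a2 at 22.5 against 775.5 CPM and 54.3 against 1476 CPM, and smooth muscle actin Acta2 at 19.8 against 672 CPM. Decorin, Dcn, was at 63.2 against 1624 CPM, close to the 45.8 CPM of the cells rich in Zp3 and the 79.0 CPM of endothelial cells. The others by the same scale were Tcf21, Bgn, Tagln, Dlk1, Mfap4, Cxcl12, Col3a1, Csrp1, Ptn and Cnn2. Tagln had 2 UMIs in all members against 222 CPM outside.

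Within the granulosa cells, many carried mRNA of dividing cells. With every cell thinned to 5000 UMIs, 37 of 86 (43.0%; 32.4 to 54.2) had 3 or more UMIs over 24 genes of the G2 and M phases and are called cycling here. The same limit took 149 of 412 other somatic cells (36.2%; 31.5 to 41.0) and 7 of 21 endothelial cells. The highest member held 53 such UMIs, the median 2, and 20 members held none. The class is a range cut from a count: 34 members held 1 to 5 UMIs. With a limit of 2 UMIs the share was 54.7% and with 5 it was 39.5%. All 11 cells rich in Zp3 passed too, with 5 to 27 of these UMIs, so a passed limit is not by itself a sign of division.

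**Figure D3:**
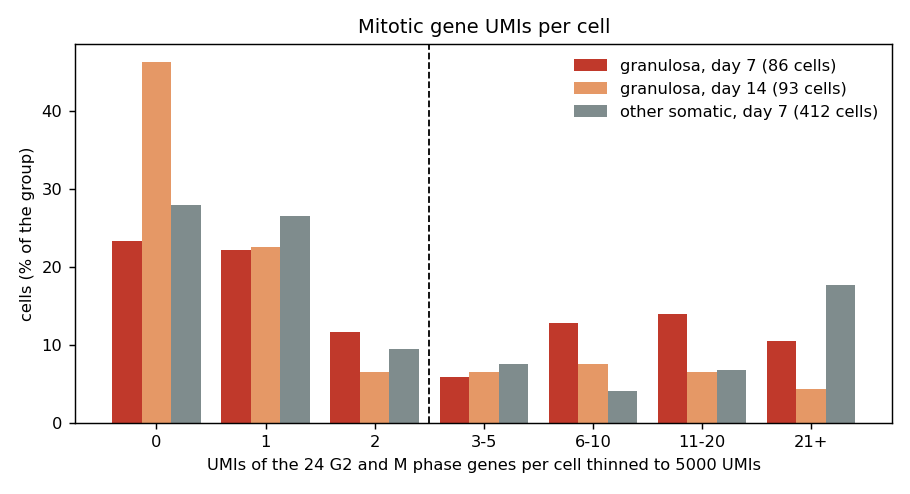
UMIs of the 24 G2 and M phase genes per cell thinned to 5000 UMIs (horizontal axis, in classes) against the percentage of cells of each group (vertical axis). The dashed line separates the 37 granulosa cells of day 7, 23 of day 14 and 149 other somatic cells with 3 or more.

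The 37 cycling cells were deeper, with a median of 23222 UMIs against 15766 in the other 49. Of 10980 genes compared between them, 190 (1.73%) were at least 2-fold higher in cycling cells and 77 (0.701%) lower. The 24 genes of the G2 and M list made the split, and all 24 are among the 190. They are described only, with Mki67 at 134 against 3.18 CPM and Ccnb1 at 97.8 against 2.12 CPM. Genes outside that list differed as well. The centromeric histone Cenpa was at 198 against 12.7 CPM (15.6-fold; 8.70 to 30.6), the kinetochore genes Spc24 and Spc25 at 113 against 7.42 CPM and 99.9 against 8.48 CPM, and Racgap1, which acts in cytokinesis, at 115 against 9.54 CPM. The histone Hist1h2ap was at 483 against 26.5 CPM, though its reads can be shared with near-identical histone genes. Cdca3, Cdca8, Knstrn, Pimreg, Tacc3 and Kif22 were between 8.32-fold and 14.1-fold.

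The S phase list, which did not make the split, had 1 of 20 genes past 2-fold, the ribonucleotide reductase gene Rrm2 (93.7 against 21.2 CPM; 4.42-fold, 2.70 to 7.58), with a median of 0.42 against −0.02 over all genes compared. Pcna stood at 137 against 77.4 CPM, a ratio of 1.77 (1.32 to 2.39).

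The follicle genes were close in both groups. Inha was at 1396 CPM in cycling and 1438 CPM in other granulosa cells (ratio 0.970; 0.899 to 1.05), Serpine2 at 1320 and 1332 CPM (0.991; 0.916 to 1.07) and Slc18a2 at 361.5 and 353 CPM (1.02; 0.879 to 1.19). Amh stood at 549 against 443 CPM, a ratio of 1.24 (1.09 to 1.41), and Hsd17b1 at 157 against 121 CPM, 1.30 (1.01 to 1.67). Foxl2 was at 286 against 333 CPM and Ccnd2 at 1266 against 1466 CPM. None of 16 receptors, 9 contact genes, 9 Notch genes and 14 G1 genes compared was 2-fold apart. Of 18 hormones and growth factors 0 were higher and 3 lower: Rspo1, Bmp4 and Tgfb2. Rspo1, an R-spondin that raises WNT signalling, was at 20.6 against 61.5 CPM (2.98-fold lower; 1.77 to 5.24). Tgfb2 had 44 UMIs in 4 of the other cells, 97.7% of them in 3, and Bmp4 had 63.3% of its UMIs in 3, so both rest on few cells.

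Lower in cycling cells were also Timp3, an inhibitor of matrix proteases (43.3 against 137 CPM; 3.16-fold, 2.22 to 4.59), thymosin β4 (Tmsb4x, 601.5 against 1539 CPM), Klf2 (192 against 493 CPM), the clock output gene Dbp, Wfdc10 (163 against 401 CPM), Id2, Tril, Neat1, Gadd45g, Gem and Ramp2. The stress list moved with this split: 3 of its 15 genes, Btg2, Atf3 and Junb, were at least 2-fold lower in cycling cells, and its sum was 6064 against 8784 CPM. The part of stress and depth in the lower genes was not tested. Of 17 lower genes among those named here or fixed as markers, 5 were still 2-fold lower when 2 UMIs made a cycling cell, 5 after thinning to 2000 UMIs and 4 with a pseudocount of 50 CPM. Of 12 higher ones outside the G2 and M list, 12, 11 and 12 were still 2-fold higher.

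Amh differed widely among the granulosa cells, and other genes differed with it. The cells were divided at the median of 3.44 CP10K into 43 high cells (from 3.48 through a median of 6.89 to 40.8) and 43 low ones (from 0 through 1.25 to 3.39). The division is a cut through a continuous range: 14 members lay within 20% of it, and 8 had no Amh UMI. The stress list moved with Amh, with 7 of its 15 genes at least 2-fold lower in Amh high cells and a sum of 5511 against 8827 CPM, as did depth, with medians of 17211 against 22569 UMIs. Summed markers of other cells differed too: surface epithelium markers were at 65.7 CPM in Amh high and 149 CPM in Amh low cells, oocyte markers at 35.3 and 123 CPM, and theca markers at 455 and 572 CPM. The first 2 sums rest in part on 1 Amh low cell each, with 33.9 CP10K of epithelium and 31.9 of oocyte markers. Their medians per cell were 0.490 and 0.674 CP10K for epithelium, and 0 and 0.247 for oocyte markers. The stroma sum went the other way, at 309 and 258 CPM, with 1 Amh high cell at 48.7 CP10K. Cycling cells were 20 of 43 and 17 of 43, but the G2 and M list summed to 2228 CPM in Amh high and 1357 CPM in Amh low cells. The medians of that sum were 4.81 and 4.03 CP10K per cell. Its genes had a median log2 ratio of 0.71, against −0.05 over all genes compared. The part of stress, depth, cell cycle or these markers in the differences was not tested.

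Inha was higher where Amh was higher, at 2026 against 959 CPM (2.11-fold; 1.95 to 2.29), with 19.3 against 8.33 CP10K in the median cell, although the ranges of both groups overlap. Inha and Amh, and also Hsd17b1, enter the sum that chose the cells, so their levels here are a description. Over the alternatives the log2 ratio of Inha lay between 0.98 and 1.33. Hsd17b1 was at 186 against 103 CPM (1.80-fold; 1.40 to 2.32) and Nppc at 79.1 against 43.9 CPM. Ihh was at 53.6 against 18.3 CPM (2.93-fold; 1.69 to 5.24), and 21 against 10 cells had a UMI of it. Its log2 ratio lay between 0.41 and 2.19 over the alternatives. Other granulosa genes did not follow Amh. Nr5a2, also a gene of the choice, had log2 ratios from −0.38 to −0.04 over the alternatives, and the marker Slc18a2 from −0.43 to −0.15. Serpine2 was at 1379 against 1286 CPM (1.07; 0.991 to 1.16), Fst at 444 against 431 CPM (1.03; 0.897 to 1.18), Amhr2 at 343 against 316 CPM (1.09; 0.926 to 1.28) and Gja1 at 354 against 363 CPM (0.976; 0.836 to 1.14). Foxl2 stood lower, at 263 against 344 CPM, a ratio of 0.765 (0.644 to 0.906), and Wt1 at 363 against 570 CPM (0.637; 0.553 to 0.732).

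Of 10980 genes compared, 40 (0.364%) were at least 2-fold higher in Amh high cells and 153 (1.39%) lower. The higher ones included the homeobox gene Rhox8 (105 against 31.1 CPM; 3.37-fold, 2.24 to 5.17), the fumarate hydratase gene Fh1 (86.4 against 30.2 CPM), the glutathione transferase gene Gsta4 (208 against 83.2 CPM), the prostacyclin synthase gene Ptgis (93.7 against 36.6 CPM), Pold2, Dcps, Tubb4b and Lap3. Hist1h2ap and the mitotic genes Kif22 and Nusap1 were also higher. Hist1h2ap and Nusap1 stood the other way, with log2 ratios of −0.89 and −0.071, once the cycling cells were left out. The G2 and M list, whose UMIs define the cycling cells, had 3 of 24 higher in all cells. Fdps was the 1 higher gene of 14 in cholesterol synthesis (128 against 55.8 CPM).

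Lower in Amh high cells were the caldesmon gene Cald1 (25.6 against 123 CPM; 4.79-fold, from 3.01), the transcription factor Irx3 (7.30 against 50.3 CPM; 6.89-fold, 2.97 to 19.6) and the imprinted noncoding RNA Meg3 (71.8 against 246 CPM). Col4a1, a collagen of the basement membrane, was at 30.4 against 101.5 CPM, and Sorbs2 at 15.8 against 59.5 CPM. Endothelial cells held Irx3 at 148 CPM, in 15 of 21 cells. The endothelial markers themselves summed to 31.7 CPM (20.7 to 46.4) in Amh high and 16.5 CPM (9.76 to 26.0) in Amh low cells. Dividing the cells by an Amh UMI at 2000 UMIs left a log2 ratio of −0.24 for Cald1, the smallest over its alternatives, beside −1.90. The calls in this division depend on how it is made: of 14 higher and 22 lower genes among those named here or fixed as markers, 6 and 10 were still 2-fold apart with an Amh UMI at 2000 UMIs, and 8 and 12 with one at 5000 UMIs. Leaving out the cycling cells kept 9 and 21, and a pseudocount of 50 CPM 2 and 7. The rest were Zfp36, an mRNA decay factor (29.2 against 132 CPM), the immediate early gene Nr4a1, Ppp1r15a, Klf2, Klf4, Klf6 (99.8 against 296 CPM) and Rc3h1. Axin2, a target of WNT signalling, was the 1 lower gene of 11 in its list (7.30 against 36.6 CPM), while Wnt4 stood at 32.9 against 71.3 CPM. Of 9 Notch genes Notch2 and the target Hes1 were lower, at 20.7 against 54.9 CPM and 164 against 365 CPM. Of 14 G1 genes the inhibitors Cdkn1b (68.2 against 148 CPM) and Cdkn1a (2 against 26 UMIs) were lower. Over the alternatives the log2 ratio of Axin2 lay between −2.35 and −0.21, and that of Cdkn1a between −2.85 and −0.19. Krt19, H19, Bmp4 and Tgfb2 were at least 2-fold lower too, but 96.4%, 71.4%, 57.6% and 97.7% of their UMIs in Amh low cells came from 3 cells, and for Krt19 and Tgfb2 the direction turned with Amh called at 5000 UMIs (log2 1.38 and 1.47).

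**Figure D4:**
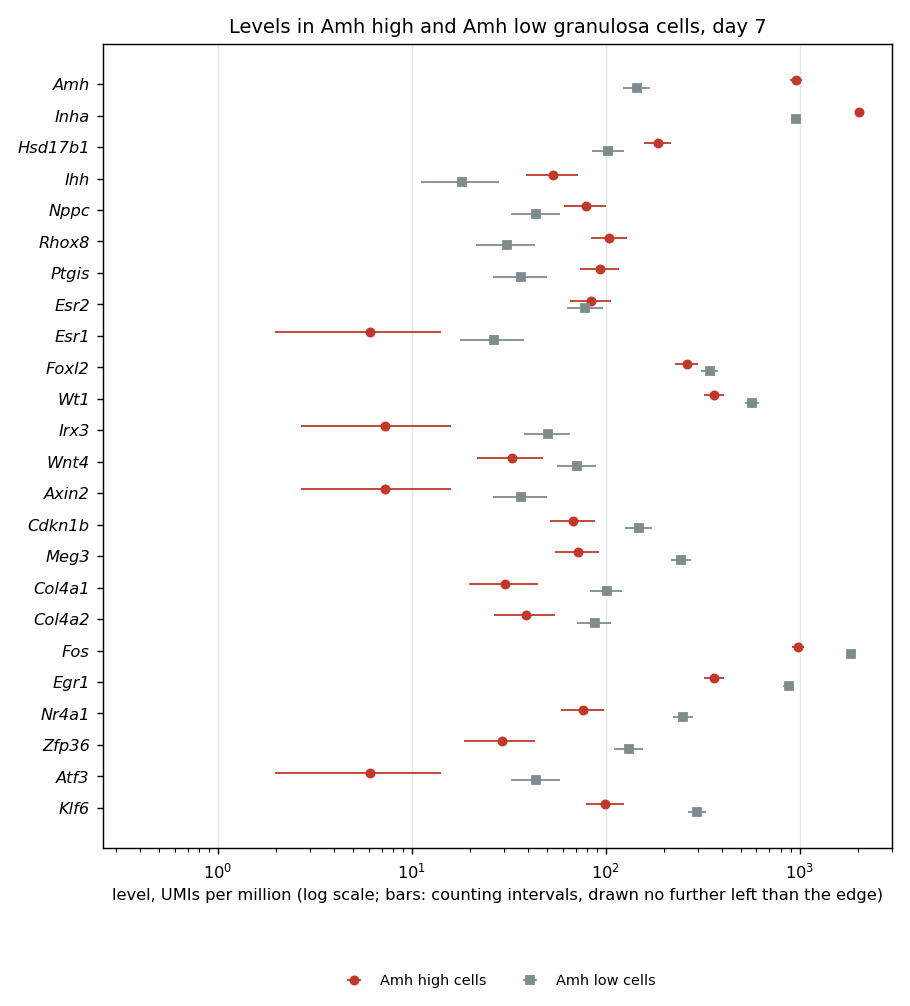
Levels in CPM (log axis) of 24 genes in the 43 Amh high cells (circles) and the 43 Amh low cells (squares) among the granulosa cells of postnatal day 7; bars are exact 95% counting intervals. Amh made the division; Inha, Hsd17b1 and Ihh lie to the right in Amh high cells, and Irx3, Meg3, Fos, Egr1 and Zfp36 to the left.

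The series asks how ovarian cells shift between the oestrogen receptors, so both were followed across the Amh range. Esr2 was level, at 84.0 CPM in Amh high cells and 78.7 CPM in Amh low ones (ratio 1.07; 0.766 to 1.48). Esr1 had 5 UMIs (6.09 CPM; 4 cells) against 29 UMIs (26.5 CPM; 15 cells), a ratio of 0.229 (0.0694 to 0.600). Esr2 therefore made 93.2% of the UMIs of both receptors in Amh high cells (69 of 74; 84.9 to 97.8) and 74.8% in Amh low cells (86 of 115; 65.8 to 82.4). This difference rests on few UMIs of Esr1. Only 3 deep cells, of 44152 to 48690 UMIs, held 15 of the 29 Esr1 UMIs, and after thinning to 5000 UMIs 9.30% of the cells had an Esr1 UMI in both groups. When cells with and without an Amh UMI were compared after thinning to 2000 UMIs, the shares were 82.5% (72.4 to 90.1) and 81.7% (73.1 to 88.4). Under other divisions the share stayed higher in Amh high cells: 94.5% against 71.6% without the 3 deepest cells of each group, and 89.8% against 66.1% with an Amh UMI at 5000 UMIs. Leaving out the deepest cells kept 27 of the 29 Esr1 UMIs of Amh low cells. It therefore did not remove the 3 cells that held 15 of them. The share was 89.1% against 69.1% in the 29 highest and 29 lowest cells, and 95.7% against 69.5% in cells that were not cycling, with overlapping intervals in both. Endothelial cells held 0 Esr1 UMIs, while the cells rich in Zp3 held it at 114.5 CPM.

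The 93 cells that met the same rule at postnatal day 14 were set beside the 86 of day 7. They held 1616687 UMIs, with a median of 12369 per cell. Of 12607 genes compared, 167 (1.32%) were at least 2-fold higher at day 14 and 175 (1.39%) lower. At day 14, 5 members had a stroma marker sum of 20 CP10K or more, against 1 at day 7. A theca marker sum of that size was found in 18 against 1, but Hsd3b1 is in that sum, and over the other 7 theca markers it was 2 against 0. Without the members at or above 20 CP10K of stroma, epithelium, oocyte, vessel, muscle or blood markers (88 and 83 cells left; those with theca markers stay) the counts were 136 and 196. The erythroid markers summed to 489 CPM, against 485 at day 7.

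Inhba, Ihh, Wnt4 and Hsd3b1 were lower at day 7. In the hormone list 4 of 19 were at least 2-fold lower at day 7, 1 of them Inha of the choice, and 5 higher. In the steroid list 3 of 12 were lower: Hsd3b1, and Cyp11a1 and Cyp17a1, whose UMIs the rule limits at both ages. Inhba was at 18.8 CPM at day 7 (22 of 86 cells) and 255 CPM at day 14 (17 of 93 cells), 13.6-fold apart (9.63 to 19.6), but 3 cells held 51.0% of its UMIs at day 14, the highest with 63.6 CP10K. Inhbb was level, at 239 and 241 CPM. Ihh was at 33.4 and 188 CPM (5.63-fold; 4.28 to 7.49), Wnt4 at 54.8 and 177 CPM and Hsd3b1 at 234 and 880 CPM (3.76-fold; 3.38 to 4.19). Fshr had 1 UMI at day 7 and 26 UMIs in 16 cells at day 14 (30.8-fold; 5.06 to 1262). Cyp19a1 had 10 and 32 UMIs. Of the genes of the choice, given as a description, Inha was at 1416 and 4206 CPM and Amh at 497 and 470 CPM. Gja1 was at 359 and 751 CPM, Foxo1 at 115 and 247 CPM, and the survival genes Bcl2 and Bcl2l1 at 32.9 and 77.9 CPM and at 20.4 and 51.3 CPM.

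The 12 genes named by size as lower at day 7 also included Ihh and Hsd3b1. Ass1, of arginine synthesis, was at 5.75 and 103 CPM (18.0-fold; 9.79 to 36.7), Cbs, of cysteine synthesis, at 1.57 and 71.8 CPM from 3 UMIs at day 7 (45.8-fold; 15.3 to 225), and the carbonic anhydrase Car14 at 14.6 and 88.5 CPM. Igfbp7 was at 39.2 and 261 CPM and Igfbp5 at 161 and 678 CPM, both genes that the stroma also expresses. Endothelial cells of day 7 held Igfbp7 at 4361 CPM. Summed endothelial markers were at 23.0 CPM in day 7 members and 239 CPM in day 14 members, with 1 of the latter past 20 CP10K. Smooth muscle or pericyte markers stood at 33.9 and 134 CPM. Surface epithelium, oocyte and immune sums were lower at day 14. The part of these markers was not tested. Without the members named above for their stroma, epithelium, oocyte, vessel, muscle or blood markers the log2 ratios of Igfbp7 and Igfbp5 were 2.45 and 2.198, beside 2.46 and 2.01 with them. The others were Nap1l5, Susd4, Slc25a35, Mgarp and Meg3.

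Other genes were higher in day 7 cells. Hs6st2, which sulfates heparan, was at 231 CPM at day 7 and 39.6 at day 14 (5.83-fold; 4.48 to 7.70), Tex14, a gene of intercellular bridges, at 124 and 17.9 CPM, and the imprinted gene Peg3 at 210 and 39.6 CPM. Tcea3, Nrn1, Krt79, Calb1, Ank1, Tmem215, H2-K1 and Sdc1 were between 4.12-fold and 11.5-fold higher, and Siglece was at 39.2 CPM against 3 UMIs at day 14. Follistatin, Fst, was at 437 and 211 CPM, Igf1 at 115 and 29.7 CPM, Rspo1 at 40.7 and 4.95 CPM and Wt1 at 481 and 222 CPM. The Notch targets Hey1 (52.8 and 9.90 CPM) and Heyl (92.4 and 20.4 CPM) were the 2 lower of 11 genes in their list at day 14.

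Of the cell cycle lists, 8 of 24 G2 and M phase genes, 2 of 14 G1 genes and 0 of 20 S phase genes were at least 2-fold higher at day 7, and 0 of any of them lower; the S phase list had a median log2 ratio of −0.60, day 14 over day 7. Ccnd2 was at 1364 and 489 CPM (2.79-fold; 2.58 to 3.03), with medians of 13.4 and 3.77 CP10K per cell, and its inhibitor's gene Cdkn1b went the same way, at 114 and 35.3 CPM. Among the 8 were Mki67 (69.5 and 27.2 CPM) and Cdk1 (94.0 and 39.0 CPM). The share of cycling cells was 43.0% at day 7 and 24.7% (23 of 93; 16.4 to 34.8) at day 14, both thinned to 5000 UMIs, and the intervals overlap. Esr2 was at 80.95 and 77.9 CPM and made 82.0% (155 of 189 UMIs; 75.8 to 87.2) and 93.3% (126 of 135; 87.7 to 96.9) of both receptors.

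**Figure D5:**
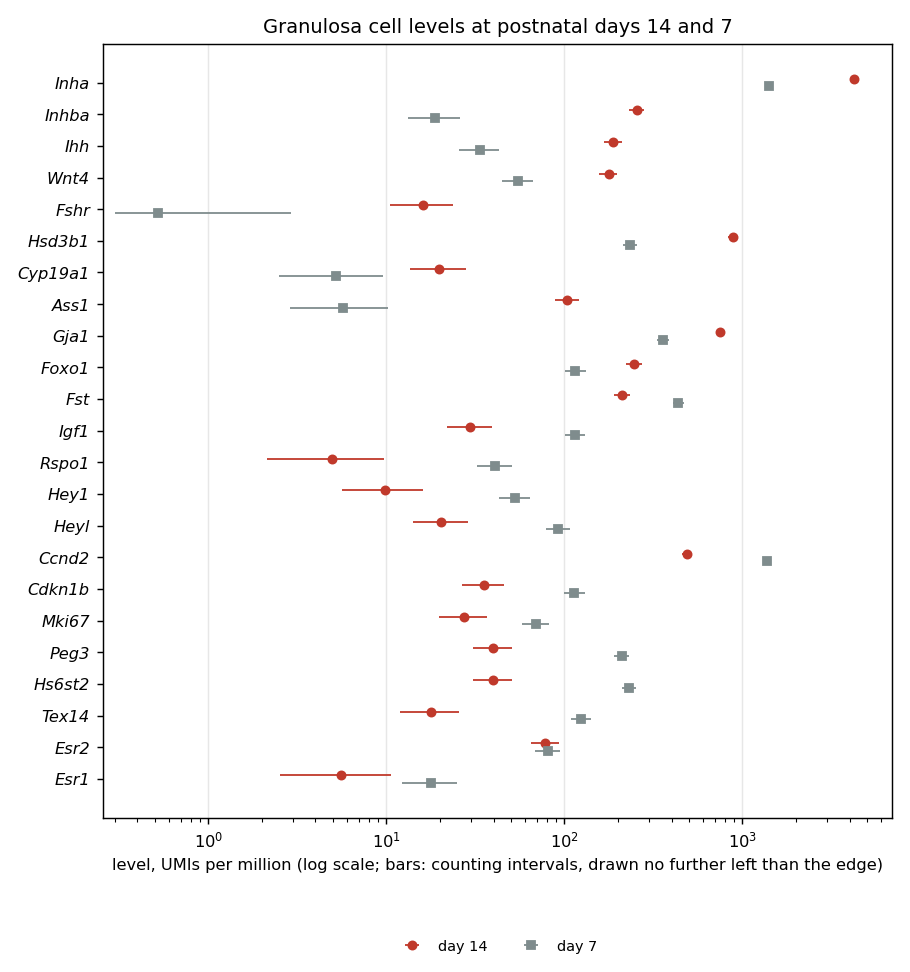
Levels in CPM (log axis) of 23 genes in granulosa cells chosen by the same rule at postnatal day 14 (circles, 93 cells) and day 7 (squares, 86 cells); bars are exact 95% counting intervals. Inha to Foxo1 lie to the right at day 14, Fst to Tex14 to the right at day 7, and the Esr2 intervals overlap.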

How the data were processed

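Single-cell RNA was captured with the 10x 3′ v2 kit, 1 library per age, and sequenced on the same lane, per the labels. The authors deposited raw UMI counts per gene and barcode; they were made with Cell Ranger 2.1.1 on GRCm38, per the submitters' processing notes. The sources used here do not name the annotation or the cell calling settings. The tables list 53465 genes, and 108 symbols are shared by several identifiers.

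The members, the 17 lists (244 genes) and the 9 marker classes (93 genes) were chosen with earlier results of these data known. UMIs were summed over the cells of a group, scaled to 1000000, and given with exact Poisson 95% intervals; ratios have exact conditional binomial intervals, shares Clopper-Pearson ones. A gene was compared with 10 or more UMIs over both groups, and counted from 2-fold on the scale of CPM plus 10. The floor is 3 UMIs. Named genes were the 12 largest differences (15 against other somatic cells) with 50 or more UMIs in the higher group, a UMI in at least 10% of its cells (25%), intervals apart and at most 50% of the UMIs in 3 cells. Rule, mitochondrial, ribosomal, haemoglobin, predicted and Xist genes were left out. List members and a few markers were added, and 1 item is not reported here. The comparison was checked on simulated Poisson counts without variation between cells. That check cannot show how the intervals hold where a few cells carry most UMIs of a gene. Tools were numpy 2.4.6, pandas 2.3.3, scipy 1.17.1 and scanpy 1.11.5 (Scrublet). Alternatives changed the pseudocount, filters, weighting, cell sets and divisions. The embryonic library gave no members.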

Additional observations from a re-analysis of the deposited data

How the results depend on the processing

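Named genes kept their direction under all alternatives run, except Zp3, which was at −3.42 (log2) when all other cells, the Zp3-rich ones included, were the comparison, and Hist1h2ap and Nusap1 in the Amh division without cycling cells (−0.89 and −0.071), and Krt19 and Tgfb2 in the Amh division, which were at 1.38 and 1.47 with Amh called at 5000 UMIs, with Krt19 at 1.56 at 2000 UMIs; genes whose ratio interval includes 1 were not counted. The counts of genes past 2-fold depend on the pseudocount by construction. With 1 CPM they were, higher and lower, 1867 and 2168 against other somatic cells, 542 and 526 in cycling cells, 318 and 791 in Amh high cells, and 668 and 755 at day 14. With 50 CPM they were 195 and 225, 44 and 5, 3 and 9, and 21 and 24. Fewer genes were lower in cycling cells when 2 UMIs made a cycling cell (42) or after thinning to 2000 UMIs (37). In the Amh division the highest against the lowest 29 cells gave 178 and 389, cells that were not cycling 140 and 534, an Amh UMI at 5000 UMIs 89 higher, and at 2000 UMIs 72 lower. The last was chosen after seeing the data, as was leaving out cells with stroma, epithelium or oocyte markers. The cause of these moves was not tested, beyond the smaller groups. In Amh high cells the G2 and M list had 0 to 17 genes higher and the stress list 4 to 9 lower over the alternatives, against 3 and 7. The Esr2 share of Amh high cells was 82.5% under the division at 2000 UMIs. With a limit of 2 UMIs the cycling share was 54.7% in granulosa cells and 45.6% in other somatic cells, and with 5 it was 29.9% in the latter. The rule took 88 cells at 3 CP10K, 72 at 10 CP10K and 86 with 1000 or more genes. No paired analysis was possible because each age has 1 library and no test was made. Depth limits genes under about 1.57 CPM in granulosa cells, the level of 3 UMIs.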
